A study of Mus musculus with 14 samples.

Results

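The genes described here are 26 that build cholesterol, control its synthesis through the sterol regulatory element-binding proteins (SREBPs) or handle sterols in the cell. They were chosen by name, with earlier results of these data known, from the 46855 entries of the expression table, and all 26 were present. They comprise 8 genes of the mevalonate pathway, 11 of the route from squalene to cholesterol, 5 of the SREBP control machinery and 2 of sterol handling. The 14 RNA libraries came from the whole ileum, the last stretch of small intestine, of wild-type mice of the inbred strain C57BL/6N. Untreated mice were taken at postnatal day 14 (P14, 4 libraries), before weaning, and at postnatal day 24 (P24, 4 libraries). Other mice received recombinant mouse IL-22 (rmIl22, 3 libraries) at 0.1 µg per g body weight in 100 µL PBS by injection into the abdomen at days 14 and 15, or PBS alone (PBS, 3 libraries). These injected mice were collected at day 16, although the age field of the labels reads 14 for PBS and 24 for rmIl22. Libraries are named by the number in their column of the table.

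Cells make cholesterol from acetyl-CoA: the mevalonate pathway yields isoprenoid units, which are joined into squalene, closed into the sterol rings and trimmed to cholesterol. SREBP2, encoded by Srebf2, switches on these enzymes, while SREBP1, encoded by Srebf1, is best known for genes of fatty acid synthesis. The escort protein Scap carries both to the Golgi for activation when sterols are scarce, and the Insig proteins hold Scap in the endoplasmic reticulum when sterols are plentiful. In the small intestine, enterocytes both absorb cholesterol from the diet and make it.

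Depth, recovered from the table, ran from 35.6 to 46.5 M reads (median 42.7 M). TPM values (a per-length measure of abundance with an equal sum across libraries) were compared on the log2(TPM + 1) scale with limma, and a difference was called at a Benjamini-Hochberg adjusted p under 0.05, the adjustment covering every gene in the fit. Fold changes on that scale understate the change of low genes. The labels call the replicates biological and give no more on their source. Xist and Y-linked genes placed P14 libraries 1 and 2, P24 library 1, the 3 PBS libraries and rmIl22 library 1 as male and the other 7 as female, so sex was unevenly spread, most of all between PBS and rmIl22. In the rmIl22 group, library 2 stood apart. Slc10a2, the ileal bile acid transporter, was at 35.7 TPM there against 366 and 237 TPM in libraries 1 and 3, and the summed smooth muscle markers were at 1098 TPM against 3654 and 1878 TPM. In bulk tissue, more cells of a type and more RNA per cell cannot be told apart.

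Promoters of members are shown first, since the SREBPs act there together with NF-Y, a factor that binds the CCAAT box, and with Sp1, whose site is the GC box GGGCGG. RefSeq promoter windows on GRCm38.p6, from 250 bases before to 50 bases after each start site, were found for 22 of the 26 members and were not found for Fdps, Fdft1, Sqle and Stard4. The 3 motifs searched, on both strands, were TCACNCCAC, a core of the sterol response element, the CCAAT box and the GC box. Hmgcs1 is printed because it alone of the 22 members held TCACNCCAC. Mvk and Insig2 were added after their matches were seen, Mvk for its 5 CCAAT matches and Insig2 as the regulator that rose most. Each sequence runs 5′ to 3′ on the gene's strand over the 250 bases before the start site, and capitals mark the matches, with ATTGG for a CCAAT box on the other strand and CCGCCC for a GC box there. The regions are chr13:119690101-119690350 (plus strand) for Hmgcs1, chr5:114444019-114444268 (plus strand) for Mvk and chr1:121332590-121332839 (minus strand) for Insig2.
Hmgcs1: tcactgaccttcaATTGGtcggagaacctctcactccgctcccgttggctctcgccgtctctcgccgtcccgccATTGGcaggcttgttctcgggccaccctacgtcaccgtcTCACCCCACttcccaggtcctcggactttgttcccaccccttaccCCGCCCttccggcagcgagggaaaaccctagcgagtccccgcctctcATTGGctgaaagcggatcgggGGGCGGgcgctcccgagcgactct
Mvk: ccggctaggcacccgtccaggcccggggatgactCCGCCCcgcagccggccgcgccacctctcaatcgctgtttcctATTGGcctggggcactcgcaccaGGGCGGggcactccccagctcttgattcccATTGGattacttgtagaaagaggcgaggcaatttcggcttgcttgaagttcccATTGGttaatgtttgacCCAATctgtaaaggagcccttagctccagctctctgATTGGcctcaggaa
Insig2: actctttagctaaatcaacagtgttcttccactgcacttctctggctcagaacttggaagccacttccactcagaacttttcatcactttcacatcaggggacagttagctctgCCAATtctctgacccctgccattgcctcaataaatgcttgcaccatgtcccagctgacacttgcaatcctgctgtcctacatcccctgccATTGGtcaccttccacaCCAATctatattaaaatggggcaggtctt

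In the Hmgcs1 sequence the sterol response element core begins 137 bases before the start site and lies between CCAAT matches that begin 176 and 45 bases before it. The Mvk sequence holds 5 CCAAT boxes and 2 GC boxes. Insig2 has 3 entries with separate start sites, and the one printed holds 3 CCAAT boxes and no GC box. CCAAT was present in a window of 20 of the 22 members (90.9%), all but Acat2 and Scap, against 42.7% of the genes tested between P24 and P14 that had an entry, and it was in 37.4% of all 32851 promoters of the table. The GC box was also present in 20 of 22 members, all but Pmvk and Ggps1, against 67.2% of the tested genes, and it was in 35.7% of all promoters. TCACNCCAC was present in 1 of 22 members (4.55%), against 1.33% of the tested genes, and it was in 1.24% of all promoters. CCAAT was found in all 14 members with an entry that rose at P24 and in 6 of the 8 that did not, so its presence did not separate them. A match is a description of these letters and not evidence of binding.

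Most enzymes of cholesterol synthesis were higher at P24 than at P14. Of the 26 genes, 17 rose and 3 fell. Of all 14651 genes tested, 14.6% rose and 43.7% fell. The median log2 difference was 0.67 over the 26 genes and -0.25 over all genes tested. When libraries were scaled to the median gene, which removes that general shift, 18 rose and 1 fell, against 28.8% and 29.0% of all genes, and the median over the 26 was 0.95. In 15 of the genes every P24 library exceeded every P14 library, and in Ggps1 and Srebf1 every P24 library was lower, against 13.0% and 39.4% of all genes. Summed over the 19 enzymes, expression averaged 589 TPM (SD 104, n = 4) at P14 and 1275 TPM (SD 232, n = 4) at P24.

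**Figure D1:**
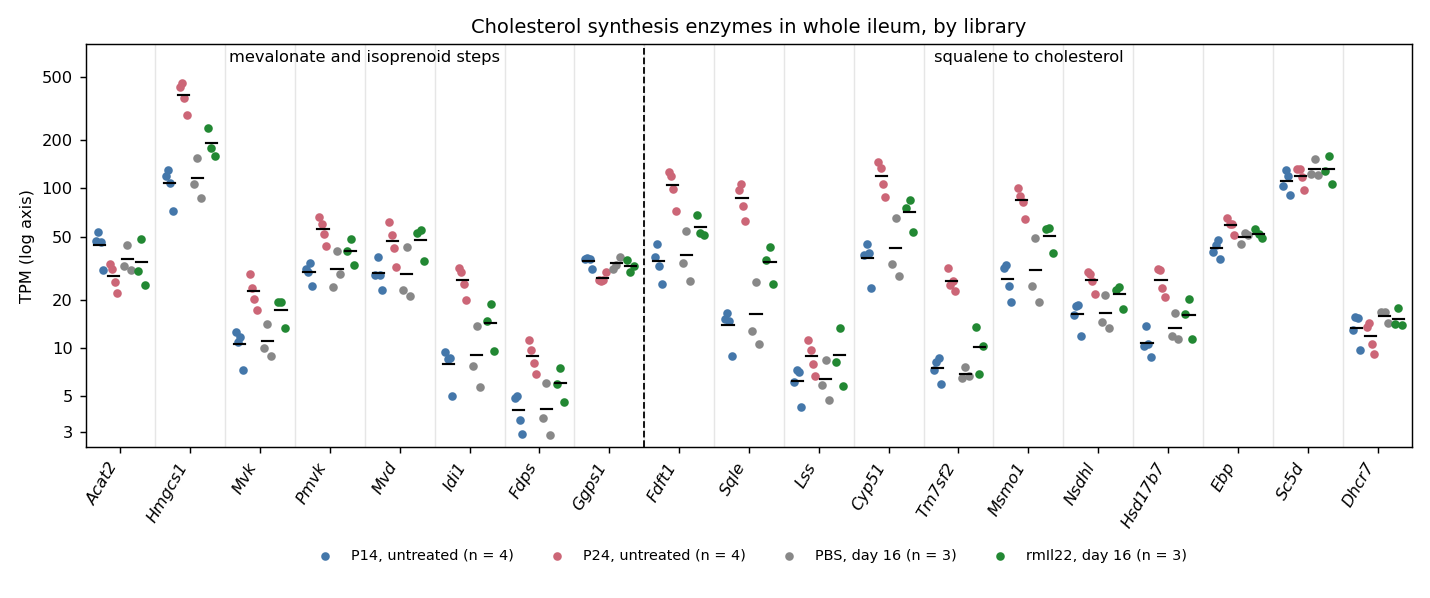
TPM of the 19 enzymes in pathway order (log axis), with a point per library and a black bar at each group mean. For 13 enzymes, among them Sqle, Hmgcs1 and Tm7sf2, the 4 P24 points lie above the 4 P14 points, and the PBS and rmIl22 points overlap for all enzymes but Hmgcs1.

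In the mevalonate pathway, 6 of 8 genes rose and 2 fell. Hmgcs1, which makes HMG-CoA, measured 119, 131, 108 and 72.7 TPM in P14 libraries 1, 2, 4 and 5, and 431, 454, 368 and 287 TPM in P24 libraries 1, 2, 6 and 8. The groups did not overlap, and Hmgcs1 moved from the second to the first place among the 26 genes by mean TPM. Its log2 difference was 1.84 (SE 0.19, adjusted p = 8.25e-06 in limma).

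The 3 steps that turn mevalonate into isopentenyl pyrophosphate rose together. Mevalonate kinase, Mvk, was at 12.7, 11, 11.8 and 7.30 TPM at P14 and 29.3, 23.8, 20.4 and 17.3 TPM at P24, a log2 difference of 1.02 (SE 0.18, adjusted p = 5.61e-04). Pmvk, the next kinase, went from 30.0 ± 3.98 to 55.4 ± 9.86 TPM (mean ± SD, n = 4 in each age group here and below; log2 difference 0.86, adjusted p = 3.08e-04). The decarboxylase Mvd went from 29.5 ± 5.84 to 46.8 ± 12.2 TPM (0.63, adjusted p = 0.0128), and its groups overlapped, since P24 library 8 at 32.4 TPM lay below P14 library 2 at 37.3 TPM. Mvd lies within a gene on the other strand, Gm20388, and the strand setting of the counting is not given in the sources used here.

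Idi1, which isomerises isopentenyl pyrophosphate, was at 9.50, 8.57, 8.68 and 5.05 TPM at P14 and 32.0, 29.9, 25.3 and 19.9 TPM at P24. All P24 libraries were above all P14 libraries, with a log2 difference of 1.64 (SE 0.19, adjusted p = 1.97e-05). Fdps, which joins these units into farnesyl pyrophosphate, was the lowest of the 26 genes at P14, at 4.12 ± 1.05 TPM, and reached 8.99 ± 1.88 TPM at P24 (0.97, SE 0.17, adjusted p = 5.94e-04). Another annotated gene, Gm43738, overlaps Fdps on the same strand, so reads could be split between them.

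The first gene and the side branch went the other way. Acat2, the cytosolic thiolase that condenses acetyl-CoA, was at 46.6, 53.6, 46.4 and 30.8 TPM at P14 and 33.7, 31.1, 25.9 and 22.1 TPM at P24. Its log2 difference was -0.62 (SE 0.17, adjusted p = 0.00897) and the groups overlapped. Ggps1, which makes geranylgeranyl pyrophosphate for protein prenylation, was at 36.2, 36.8, 36.1 and 31.1 TPM at P14 and 26.9, 26.2, 26.7 and 29.8 TPM at P24, with a log2 difference of -0.34 (SE 0.09, adjusted p = 0.00723). Neither fall held when libraries were scaled to the median gene, where the differences were -0.34 for Acat2 (adjusted p = 0.108) and -0.06 for Ggps1 (adjusted p = 0.488).

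In the route from squalene to cholesterol, 9 of 11 genes rose and none fell in limma, with a median log2 difference of 1.23. The gene with the largest difference of all 26 was Sqle, squalene epoxidase, a rate-controlling enzyme of the pathway. It measured 15.3, 16.7, 14.9 and 9.01 TPM at P14 and 98.4, 107, 78.1 and 62.3 TPM at P24, so the lowest P24 library stood well above the highest at P14. The ratio of the means was 6.19 and the log2 difference 2.55 (SE 0.20, adjusted p = 8.68e-07). By mean TPM it moved from place 18 to place 7 among the 26 genes. On mm10 (GRCm38, GENCODE M21), Sqle lies at chr15:59315077-59331192 on the plus strand and overlaps no other annotated gene.

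Fdft1, squalene synthase, which commits farnesyl pyrophosphate to sterols, was at 37.2, 44.7, 32.7 and 25.4 TPM at P14 and 127, 119, 98.7 and 72.5 TPM at P24 (log2 difference 1.54, SE 0.19, adjusted p = 4.05e-05). Lss, which closes the rings to give lanosterol, showed a small difference, from 6.25 ± 1.39 to 8.93 ± 2.01 TPM, with overlapping groups. Its log2 difference was 0.45 (SE 0.18, adjusted p = 0.0437). That call was lost when all 14 libraries were fitted together (adjusted p = 0.109), without the filter (0.107) and without any 1 of 5 libraries (P14 libraries 1 and 5 and P24 libraries 1, 2 and 6), where adjusted p ranged from 0.0547 to 0.129.

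The enzymes Cyp51, Tm7sf2 and Msmo1, which act on lanosterol and the sterols made from it, rose. Cyp51, the lanosterol demethylase, was at 38.1, 44.8, 39.3 and 23.9 TPM at P14 and 147, 134, 107 and 87.8 TPM at P24 (log2 difference 1.69, SE 0.20, adjusted p = 2.46e-05). Tm7sf2, a sterol reductase of the next step, was at 7.28, 8.24, 8.71 and 6.00 TPM at P14 and 31.7, 24.8, 26.2 and 22.8 TPM at P24 (1.68, SE 0.13, adjusted p = 8.42e-07). Msmo1, the methylsterol monooxygenase, went from 27.2 ± 6.50 to 84.1 ± 15.1 TPM (1.60, adjusted p = 1.48e-05). For all 3 genes the P14 and P24 libraries did not overlap.

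Hsd17b7, Nsdhl and Ebp, of later steps, also rose. Hsd17b7, the keto-reductase, went from 10.8 ± 2.04 to 26.8 ± 5.19 TPM (log2 difference 1.23, adjusted p = 4.37e-05). Nsdhl, the sterol dehydrogenase that works with Msmo1, went from 16.3 ± 3.07 to 26.9 ± 3.54 TPM (0.70, adjusted p = 0.0016). Ebp, the sterol isomerase, went from 42.1 ± 4.98 to 59.1 ± 5.91 TPM (0.48, adjusted p = 0.003). Nsdhl and Ebp are X-linked, and with sex as a covariate their log2 differences were 0.75 and 0.51 (adjusted p = 0.00145 and 0.00418).

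The last desaturase and reductase did not pass the threshold. Sc5d, the desaturase, was the most abundant of the 26 genes at P14, at 103, 130, 119 and 91.4 TPM, and stood at 133, 132, 117 and 97.6 TPM at P24. Its log2 difference was 0.12 (95% interval -0.18 to 0.41, adjusted p = 0.471), and it reached 0.41 (adjusted p = 0.0191) when libraries were scaled to the median gene. Dhcr7, which makes cholesterol from its immediate precursor, was at 13, 15.6, 15.4 and 9.77 TPM at P14 and 13.6, 14.3, 10.6 and 9.19 TPM at P24. The interval of its log2 difference ran from -0.53 to 0.21 (adjusted p = 0.434).

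**Figure D2:**
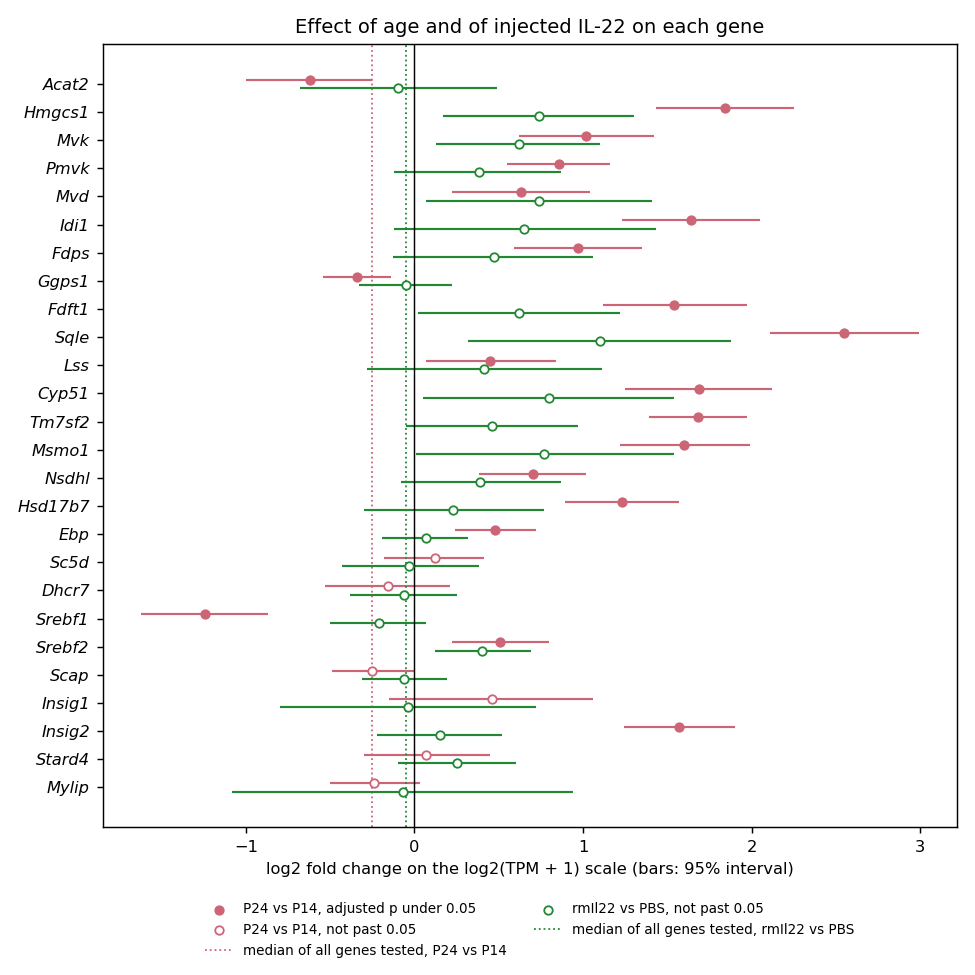
Log2 fold change of each of the 26 genes between P24 and P14 (red) and between rmIl22 and PBS (green), with 95% intervals. Filled points passed an adjusted p of 0.05, and dotted lines mark the median of all genes tested (-0.25 and -0.05). Red points reach 2.55 at Sqle, and no green point is filled.

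The control genes differed from each other. Srebf1 fell and Srebf2 rose. Srebf1 was at 47.7, 61.4, 45.6 and 32.7 TPM at P14 and 20.8, 21.8, 17.6 and 15.4 TPM at P24, a log2 difference of -1.24 (SE 0.17, adjusted p = 9.05e-05). It dropped from place 5 to place 21 of the 26 by mean TPM. The gene lies at chr11:60199089-60222581 on the minus strand, and a value per gene does not separate the transcripts of Srebf1 that start at different promoters. Srebf2 was at 26.7, 32.3, 31.7 and 21.2 TPM at P14 and 42.6, 42.2, 37.3 and 37.1 TPM at P24 (log2 difference 0.51, SE 0.13, adjusted p = 0.00595). All 4 P24 libraries thus had more Srebf2 than Srebf1 TPM, while all 4 at P14 had more Srebf1.

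Of the 2 Insig genes, sterol-dependent brakes on Scap, Insig2 rose and Insig1 did not pass the threshold. Insig2 was at 18.9, 20.7, 18.3 and 20.4 TPM at P14 and 62.2, 82.8, 53.1 and 46.9 TPM at P24, with a log2 difference of 1.57 (SE 0.15, adjusted p = 4.86e-06). Insig2 lies at chr1:121304353-121332589 on the minus strand. The P14 libraries were close together and all P24 libraries were above them. Insig1, itself a known SREBP target, was at 89.1, 94.3, 63.5 and 43.9 TPM at P14 and 132, 127, 82.7 and 60.7 TPM at P24. The groups overlapped, and its log2 difference was 0.46 (95% interval -0.15 to 1.06, adjusted p = 0.174). It passed with sex as a covariate (0.63, adjusted p = 0.0236), in voom on recovered reads (adjusted p = 0.0393) and without P24 library 8 (adjusted p = 0.0408), and the difference between the 2 genes' changes was not tested.

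Scap, the escort, averaged 13.7 ± 1.97 TPM in the younger and 11.3 ± 0.646 TPM in the older mice (log2 difference -0.25, adjusted p = 0.0756). The adjusted p fell to 0.0323 when P14 library 1 was left out and to 0.0447 in the fit of all 14 libraries. Of the sterol handling genes, Stard4, which carries cholesterol between membranes, was at 85.1 ± 18.6 and 88.7 ± 14.3 TPM (0.07, 95% interval -0.30 to 0.45). Mylip, a ubiquitin ligase that limits the uptake of lipoprotein cholesterol, was at 16.0 ± 2.47 and 13.4 ± 1.27 TPM (-0.24, adjusted p = 0.115, and 0.02 without P14 library 5).

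**Figure D3:**
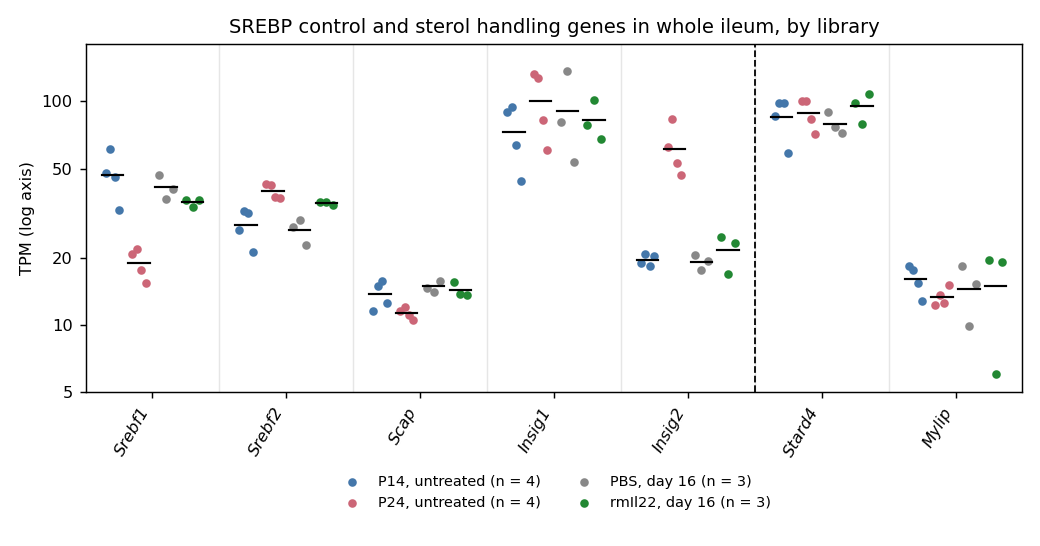
TPM of the SREBP control genes and of Stard4 and Mylip (log axis), with a point per library and a black bar at each group mean. The P24 points of Insig2 lie above and those of Srebf1 below all P14, PBS and rmIl22 points.

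In the authors' deposited table of P24 against P14, 20 of the 26 genes were higher and Srebf1 lower with an adjusted p under 0.05. The share called among all 23527 genes it lists was not computed, so these counts have no background of their own. That table gave log2 values of 2.97 for Sqle, 2.17 for Hmgcs1 and -0.98 for Srebf1. It differed from the limma calls for Insig1 (0.81, adjusted p = 0.0362), Sc5d (0.45, 0.0351) and Stard4 (0.40, 0.037), which it called higher. The authors' deposited table did not call Acat2 (-0.32, adjusted p = 0.325) or Ggps1 (-0.04, adjusted p = 0.721).

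For Sqle the age difference was seen within both sexes. Male P24 library 1 had 98.4 TPM against 15.3 and 16.7 TPM in the male P14 libraries, and the 3 female P24 libraries had 62.3 to 107 TPM against 14.9 and 9.01 TPM. With sex as a covariate, 18 of the 26 genes rose and 3 fell, against 13.7% and 41.3% of all genes.

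Injected IL-22 moved no gene of the 26 past the threshold in limma, and voom on recovered reads also called none. Of 14456 genes tested, 2.69% were called in limma and 2.23% in voom. At an unadjusted p under 0.05 there were 8 of the 26 in either tool, against 15.5% of all genes in limma. Of the 26 differences 18 were above 0, against 40.7% of all genes, and their median was 0.39 against -0.05 over all genes. In 2 genes, Hmgcs1 and Srebf2, every rmIl22 library was above every PBS library, and in Srebf1 every one was below, against 5.62% and 15.4% of all genes.

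Sqle had the largest difference here too. It measured 12.8, 26 and 10.6 TPM in PBS libraries 1 to 3 and 35.8, 42.8 and 25.2 TPM in rmIl22 libraries 1 to 3. PBS library 2 overlapped rmIl22 library 3, and the log2 difference was 1.10 (95% interval 0.32 to 1.88, adjusted p = 0.157). Hmgcs1 was at 107, 155 and 87.6 TPM after PBS and 240, 178 and 159 TPM after rmIl22, with a log2 difference of 0.74 (95% interval 0.17 to 1.30, adjusted p = 0.189). Of the alternatives, Sqle passed in the fit of all 14 libraries (adjusted p = 0.0449, where 7.32% of all genes passed) and in a fit by replicate number.

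Other enzymes leaned the same way without passing. Cyp51 was at 33.8, 65.6 and 28.3 TPM after PBS and 75.1, 85.1 and 53.4 TPM after rmIl22 (log2 difference 0.80, adjusted p = 0.289). Msmo1 differed by 0.77 (adjusted p = 0.313), Mvd by 0.74 (0.272), Idi1 by 0.65 (0.426), Mvk by 0.62 (0.199) and Fdft1 by 0.62 (0.303). Tm7sf2 was at 6.52, 7.62 and 6.68 TPM after PBS and 13.5, 6.91 and 10.3 TPM after rmIl22, so that library 2 alone lay within the PBS range. Its log2 difference was 0.46 (adjusted p = 0.381), and 0.69 (adjusted p = 0.0274) without rmIl22 library 2, where 8.88% of genes were called.

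Smaller differences were 0.47 for Fdps, 0.41 for Lss, 0.39 for Nsdhl, 0.38 for Pmvk and 0.23 for Hsd17b7, none of which passed. Fdps was at 3.69, 6.03 and 2.86 TPM after PBS and 5.95, 7.58 and 4.63 TPM after rmIl22, with overlapping groups. The 8 genes with a log2 difference under 0.1 in size lay between -0.10 and 0.07.

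Among the control genes, Srebf2 was at 27.3, 29.4 and 22.7 TPM after PBS and 35.6, 35.4 and 34.4 TPM after rmIl22, a log2 difference of 0.40 (SE 0.12, adjusted p = 0.155). Its rmIl22 libraries lay close together. Srebf1 was at 46.7, 36.4 and 40.6 TPM after PBS and 36.2, 33.6 and 36.2 TPM after rmIl22 (-0.21, adjusted p = 0.492). Insig2 was at 20.5, 17.6 and 19.3 TPM after PBS and 24.6, 16.9 and 23.3 TPM after rmIl22 (0.15, 95% interval -0.22 to 0.52). For Insig1, with PBS library 2 at 136 TPM and the others at 80.5 and 53.4 TPM, the interval ran from -0.80 to 0.72. Stard4 differed by 0.25 (95% interval -0.10 to 0.60). The authors' deposited table for rmIl22 against PBS lists 1102 genes, with adjusted p up to 0.00999, and none of the 26. Absence from it thus does not tell whether a gene had an adjusted p under 0.05 there.

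Sex and treatment were partly joined, since all 3 PBS mice were male and 2 of the 3 rmIl22 mice female. Male rmIl22 library 1 had 35.8 TPM of Sqle and 240 TPM of Hmgcs1, both above the highest male PBS library at 26 and 155 TPM. With sex as a covariate, the log2 differences were 1.18 for Sqle (adjusted p = 0.384) and 1.08 for Hmgcs1 (adjusted p = 0.181), and none of the 26 passed against 0.844% of all genes.

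The age and rmIl22 effects share no library, and their difference was tested in 1 fit of all 14 libraries. It passed for 6 of the 26 genes, 5 of them lower and 1 higher, against 6.51% and 17.3% of all 15702 genes. The rmIl22 effect was below the age effect for Insig2 (difference of the log2 effects -1.42, SE 0.24, adjusted p = 9.69e-04), Tm7sf2 (-1.22, SE 0.25, 0.00414), Sqle (-1.45, SE 0.41, 0.0216), Hsd17b7 (-0.99, SE 0.29, 0.0239) and Hmgcs1 (-1.10, SE 0.33, 0.029). For Srebf1 it was above, at 1.03 (SE 0.24, adjusted p = 0.00893). Insig2, Tm7sf2 and Srebf1 kept the call in all 20 alternatives. For Sqle it was lost without the filter (adjusted p = 0.053), without PBS library 2 (0.0542) and without rmIl22 library 3 (0.0597), and for Hsd17b7 in the same 3 alternatives (0.0533, 0.0723 and 0.0628). For Hmgcs1 it was lost in those 3 (0.0646, 0.0847 and 0.0738) and without P24 library 1 or 2 (0.0552 each). For Srebf2 the difference between the effects was -0.11, with a 95% interval from -0.51 to 0.30.

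**Figure D4:**
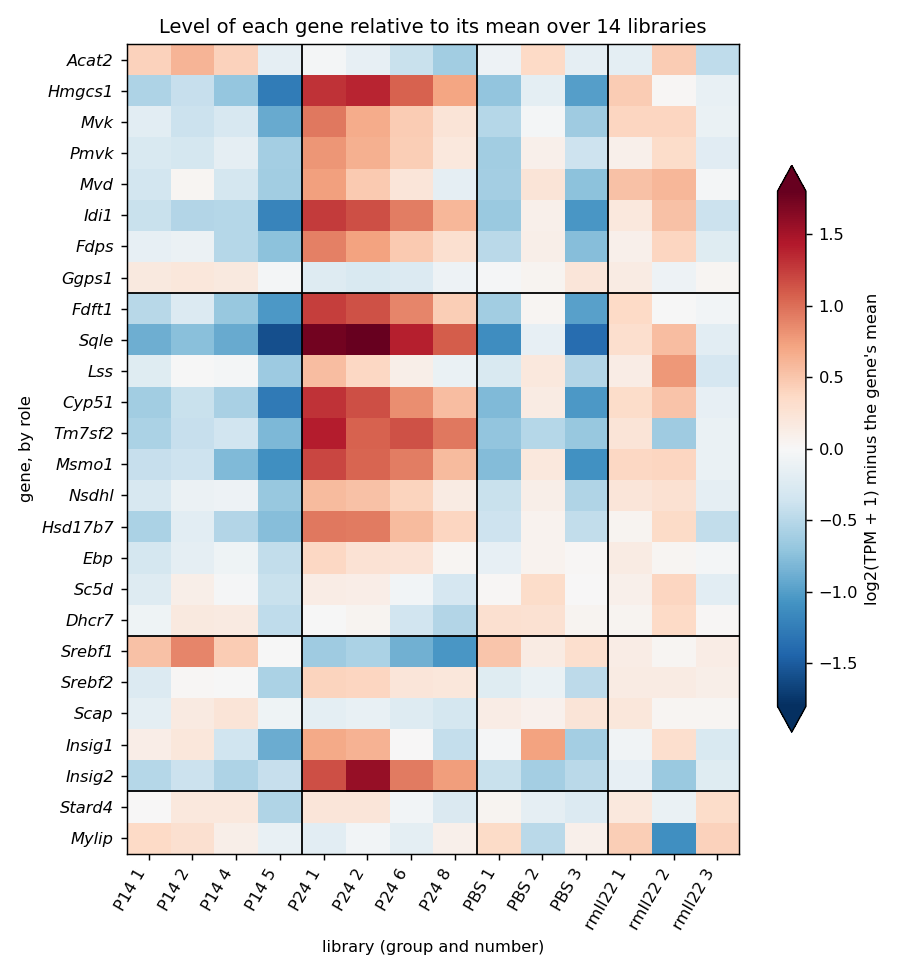
Level of each of the 26 genes in each of the 14 libraries, as log2(TPM + 1) minus the gene's mean over all libraries; red is higher and blue lower. The P24 columns are red and P14 library 5 is blue over most enzymes, and PBS library 2 and rmIl22 library 2 are the highest of their groups for 17 and 14 of the 19 enzymes.

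Within each group the enzymes varied together from library to library. P14 library 5 had the lowest value of its group in all 19 enzymes, and P24 library 8 in 18 of 19. PBS library 2 was the highest of its group in 17 of 19 enzymes, and rmIl22 library 3 the lowest in 17. The summed enzymes ranged from 444 to 691 TPM at P14, from 976 to 1480 TPM at P24, from 533 to 821 TPM after PBS and from 696 to 935 TPM after rmIl22. PBS library 2 thus lay above rmIl22 library 3, while the lowest P24 library lay above all other libraries. When libraries were scaled to the median gene, P14 library 5 was lowest in 14 of 19 enzymes, P24 library 8 in 18, rmIl22 library 3 in 17, and PBS library 2 was highest in all 19.

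Aacs, an enzyme outside the set that activates acetoacetate for lipid synthesis, was also lowest of its group in the same P14 and P24 libraries, at 9.08 TPM in P14 library 5 (others 13.2 to 15.3 TPM) and 23.3 TPM in P24 library 8 (others 31.5 to 43.0 TPM), and was picked after its values were seen. The summed epithelial markers were 5397 TPM in P14 library 5 (others 5594 to 6922 TPM), 10379 TPM in P24 library 8 (others 11657 to 13218 TPM), 6734 TPM in PBS library 2 (others 6881 and 7983 TPM) and 7349 TPM in rmIl22 library 3 (others 6213 and 10154 TPM). Their part in the spread between libraries was not tested.

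Sterol genes outside the 26 were taken from lists made by function. Of 3 tested genes of cholesterol synthesis, Aacs and Lbr rose at P24 and Acat1, the mitochondrial thiolase, fell. Aacs went from 12.9 ± 2.67 to 35.1 ± 9.50 TPM (log2 difference 1.36, adjusted p = 1.40e-04) and Lbr, a sterol reductase of the nuclear envelope, from 32.9 ± 5.89 to 41.2 ± 0.937 TPM (0.33, adjusted p = 0.0337, a call lost without the filter and without any 1 of 6 of the 8 libraries). Acat1 went from 125 ± 20.9 to 50.7 ± 1.32 TPM (-1.27, adjusted p = 3.54e-06). After rmIl22, Aacs differed by 0.51 (adjusted p = 0.283).

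Lists of other genes are to be read against all genes tested, of which 14.6% rose and 43.7% fell at P24 (28.8% and 29.0% on median-scaled values), with a median log2 difference of -0.25. Among 10 genes of SREBP processing and sterol-dependent degradation, 2 rose and 6 fell, and 3 rose and 2 fell on median-scaled values. Their median of -0.31 was close to that of all genes. Erlin1, an endoplasmic reticulum protein that holds SREBP in check, rose by 0.80 and Rnf145, a ubiquitin ligase of the endoplasmic reticulum, by 0.43 on the log2 scale. Gpr155, a lysosomal cholesterol sensor, fell by 1.82. Of 10 genes of sterol uptake and transport, Lpl (1.41, adjusted p = 8.17e-04) and Npc1l1 rose and Npc2 and Soat1 fell. Npc1l1, which takes up cholesterol from the gut lumen, was at 69.5 to 118 TPM at P14 and 124 to 348 TPM at P24 (log2 difference 0.89, adjusted p = 0.0182). Soat1, which esterifies cholesterol, went from 29.7 ± 5.15 to 6.27 ± 0.280 TPM (-2.06, adjusted p = 8.68e-08), and Npc2, a lysosomal cholesterol carrier, from 345 ± 63.2 to 82.6 ± 3.88 TPM (-2.03, adjusted p = 1.68e-07).

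While Srebf1 fell, more of the lipogenic genes known as SREBP1 targets rose than fell. Of 15 tested, 8 rose and 3 fell at P24 (14.6% and 43.7% of all genes), 9 rose and none fell in limma on median-scaled values, and 7 rose and 4 fell with sex as a covariate. Their median log2 difference was 0.37 against -0.25 over all genes. Scd1, a fatty acid desaturase, went from 12.2 ± 8.27 to 138 ± 52.0 TPM (3.64, adjusted p = 8.13e-05), Thrsp from 1.66 ± 0.367 to 25.5 ± 9.39 TPM (3.26) and Fasn, fatty acid synthase, from 21.2 ± 4.57 to 43.7 ± 12.0 TPM (1.00, adjusted p = 8.08e-04). Adipocyte markers moved beside them, 4 of 5 tested being higher and Cidec lower (-1.23, adjusted p = 1.06e-05), with a summed level of 117 to 151 TPM at P14 and 197 to 331 TPM at P24, and their part was not tested. After rmIl22, Me1, malic enzyme, was the only 1 of the 15 called, going from 21.7 ± 3.71 to 7.55 ± 2.76 TPM (-1.44, adjusted p = 0.0273). That call was lost in 9 of 14 alternatives (adjusted p 0.0578 to 0.174), among them median scaling (0.0578) and sex as a covariate (0.0887).

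Genes of the liver X receptors, which respond to excess sterol, included 4 of 7 that fell at P24 (3 on median-scaled values) and none that rose in limma, against 43.7% of all genes that fell (29.0% on median-scaled values). The paired cholesterol exporters Abcg5 and Abcg8 went from 189 ± 44.2 to 106 ± 17.3 TPM and from 125 ± 30.1 to 58.2 ± 9.76 TPM, and Abcg1 from 5.52 ± 1.08 to 2.85 ± 0.422 TPM. Of 10 genes in the isoprenoid branches, Pdss1 (1.08) and Pdss2 (0.44), which make the tail of ubiquinone, rose and 5 fell, and on median-scaled values 4 rose and 2 fell. Their median was -0.25, as over all genes. Dhdds and Nus1, which together make the dolichol chain, fell by 0.73 and fell by 0.55 on the log2 scale, and fell on median-scaled values too (-0.45 and -0.26). Of 10 oxysterol and bile acid genes, 5 rose and 2 fell, led by Slc10a2 (9.87 ± 3.93 to 806 ± 82.7 TPM), Fabp6 (632 ± 383 to 16886 ± 3201 TPM) and Slc51b (254 ± 97.1 to 1583 ± 125 TPM). Slc51b, part of the basolateral bile acid exporter, also rose after rmIl22, from 437 ± 30.6 to 825 ± 82.8 TPM (0.91, adjusted p = 0.0201). That call was lost in 8 of 14 alternatives (adjusted p 0.065 to 0.133), among them sex as a covariate (0.0652).

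Markers of several cell types moved beside the age difference. Their counts are to be read against all genes tested, of which 14.6% rose and 43.7% fell (28.8% and 29.0% on median-scaled values). For epithelium the summed level was 5397 to 6922 TPM at P14 and 10379 to 13218 TPM at P24, with 4 of 9 called higher and 1 lower. Krt20, a keratin of mature enterocytes, differed by 4.37, the keratins Krt19 and Krt8 by 1.69 and 1.44, Krt18 by -1.06, Vil1, a brush border protein, by 0.93, and the general epithelial marker Epcam by 0.08 (adjusted p = 0.633). Paneth cell markers were higher in 6 of 6, with a summed level of 4405 to 6581 TPM at P14 and 23815 to 24919 TPM at P24. Goblet cell markers were higher in 4 of 7 (5209 to 6776 TPM and 13281 to 15387 TPM). Markers of B and plasma cells were higher in 3 of 7 (6.00 to 46.9 TPM and 65.6 to 377 TPM). Markers of proliferating cells were higher in 6 of 12 and lower in 2 (10 and 2 on median-scaled values), with overlapping summed levels of 226 to 308 TPM and 271 to 284 TPM. Markers of T and NK cells were higher in 2 of 6, of smooth muscle in 2 of 6 and of red blood cells in 4 of 5. Stem cell markers fell in 3 of 6 (1 higher and 2 lower on median-scaled values). Macrophage markers fell in 2 of 6 (3 higher and 2 lower on median-scaled values). Of 6 enteroendocrine markers, 1 was higher and 2 lower. Fibroblast markers fell in 5 of 6, endothelial markers in 5 of 5 (4 on median-scaled values) and markers of neurons and glia in 7 of 7 (6 on median-scaled values). No gene of these marker lists was at 0 in all libraries of a group. After rmIl22 the summed epithelial markers were 6213 to 10154 TPM against 6734 to 7983 TPM after PBS, and none was called. The part of cell composition in the results was not tested.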

How the data were processed

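RNA of whole ileum from 14 mice in 4 groups was sequenced after ribosomal RNA depletion with a strand-specific kit, per the labels' protocols, which also give an RNA integrity above 8. The authors deposited TPM per gene symbol and library. STAR 2.4.0f, HTSeq 0.6.1p1, FastQC 0.11.2, DESeq2 1.14 and mm10 are named in the submitters' processing notes. Neither the annotation nor the strand setting is given in the sources used here. The 10 members that overlap a gene on the other strand thus have uncertain values. They are Hmgcs1, Mvd, Idi1, Ggps1, Fdft1, Lss, Cyp51, Srebf1, Scap and Insig2. The authors' deposited comparison tables hold log2 fold changes and adjusted p-values, whose decimal commas were read as points. P14 and P24 columns carry numbers that are not the labels' replicate numbers, so each was assigned to its group only.

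Of 46882 entries, 27 with symbols turned into dates (at most 0.0776% of a library's TPM) were left out. Whole reads, within 0.01, were recovered from the TPM steps for all 31189 genes with a value, and for 99.98% of 4000 genes made with known reads. Libraries of a group differed by more than sampling noise (chi-square per degree of freedom 28.3 to 233), so none was counted as a copy. Tests were two-sided, in limma 3.58.1 (R 4.3.3) with an intensity trend on log2(TPM + 1), fitted on the libraries of each comparison, for genes with at least 1 TPM in 4 or more libraries for the age comparison and 3 or more for the others. All 26 members passed. The script was tested on simulated data. Alternatives were a pseudocount of 0.1 TPM, no filter, median scaling, quantile normalisation, voom on the recovered reads, 1 fit of all 14 libraries, a replicate block, leaving out each library and, chosen after the data were seen, sex as a covariate. All 26 members are named. Of each other pathway list, up to 3 called genes with the largest change are named; marker lists are given by counts, and other names were chosen after their values were seen. Some genes of these lists are not reported here and were left out of the lists' counts. Members and lists were chosen with earlier results of these data known. Promoters come from RefSeq on GRCm38.p6, and figures were drawn with matplotlib 3.10.9.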

Additional observations from a re-analysis of the deposited data

Results flagged for a closer look

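In P14, Ggps1 was at 31.1 TPM in library 5 and at 36.1 to 36.8 TPM in the other 3 libraries, a gap of 0.874 of the group's range, which is above Dixon's critical value for 4 samples. Such gaps were looked for in 52 groups of 4 values, and chance gives about 1 in 20. The same library was the lowest of its group in all 19 enzymes, Ggps1 among them, and in 14 of 19 when libraries were scaled to the median gene.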

How the results depend on the processing

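Of the 20 genes called between P24 and P14, 17 kept the call in all 15 alternatives and none reversed; the exceptions were Acat2, Ggps1 and Lss. Genes that were not called changed sign: with median scaling, quantile normalisation and voom, the log2 differences were 0.12, 0.11 and 0.12 for Dhcr7, 0.03, 0.04 and 0.03 for Scap, and 0.04, 0.04 and 0.04 for Mylip, while Stard4 ranged from -0.09 to 0.17 when 1 library was left out. Over all genes, 25.1% of calls were higher as deposited and 49.8% with median scaling. For rmIl22 vs PBS, 1 of the 26 was called in the fit of all 14 libraries, and 0 to 1 when 1 library was left out. Over all genes, 389 calls became 1058 in the fit of all 14 libraries, 98 without the filter, 122 with sex as a covariate and 4 to 1324 when 1 library was left out, the lowest without PBS library 3 and the highest without rmIl22 library 2. The number of genes of the 26 whose age and rmIl22 effects differed went from 6 to 3 without the filter, and from 3 to 8 when 1 library was left out. The cause of these changes was not tested. With a replicate block in rmIl22 vs PBS, 1 of the 26 was called, Sqle (adjusted p = 0.0372), and 280 genes in all. The labels state no pairing of libraries by number. Same-numbered deviations correlated at -0.07, 0.33 and -0.05, and not every library correlated best with its own number. With 3 libraries a group, these correlations cannot decide whether libraries were paired. No paired analysis of P14 and P24 was made, since these were different mice and their columns carry no replicate numbers of the labels. With 3 libraries a group, the 95% interval of Insig1 after rmIl22 spans -0.80 to 0.72 (SE 0.32), so differences within that range remain possible for Insig1. Precision differed between genes, and the SE of Srebf2 in the same comparison was 0.12.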

Other observations

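Mylip, which was not called in either comparison, was lowest in PBS library 2 and rmIl22 library 2, the libraries with the highest value of their group in most enzymes (17 and 14 of 19). By summed enzymes, rmIl22 libraries 1 and 2 were level, at 935 and 934 TPM, and library 2 stood apart in Slc10a2 (35.7 TPM) and smooth muscle markers (1098 TPM). Mylip stood at 9.85 TPM in PBS library 2 against 18.3 and 15.2 TPM in the others, and at 6.07 TPM in rmIl22 library 2 against 19.6 and 19.2 TPM. Abca1, a cholesterol exporter, was also lowest there, at 5.10 TPM in PBS library 2 (others 10.7 and 11.2 TPM) and 6.83 TPM in rmIl22 library 2 (others 10.3 and 15.0 TPM), and so were Abcg1, at 4.08 and 3.58 TPM, and Abcg5, at 154 and 116 TPM. These genes were picked after their values were seen, and no test was made. The untreated libraries did not share the pattern. P14 library 2, highest of its group in 13 of 19 enzymes, was also highest in Abca1 (10.2 TPM), Abcg1 (6.95 TPM) and Abcg5 (254 TPM). Mylip was at 17.6 TPM there, not the lowest. P24 library 1, highest in 15 of 19 enzymes, was lowest in Mylip (12.3 TPM) but not in Abca1 (5.61 TPM), Abcg1 (3.02 TPM) or Abcg5 (97.3 TPM).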
